A study of Mus musculus with 8 samples.

Results

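A set of 10 long noncoding RNAs of the neuronal nucleus was followed, each found by its symbol: Meg3, Rian, Mirg, Snhg11, Snhg14, Malat1, Neat1, Miat, Kcnq1ot1 and Peg13. All 10 were found among the 55471 genes of the exonic count table, and all 10 passed the filter on low counts, which left 19176 genes tested. Snhg11 was the 1 member that could also be read in the second table, which counts exons and introns apart. The genes were chosen by symbol as abundant or imprinted RNAs, with earlier results of these data known.

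The samples were 4 Pilo and 4 Mock preparations of forebrain excitatory neuronal nuclei from male C57BL/6J mice aged 6 to 8 weeks with the genotype CaMKIIalpha-Cre:SUN1-sfGFP. In these mice the CaMKIIalpha promoter drives Cre, and nuclei carrying the tagged envelope protein SUN1-sfGFP were pulled down with an antibody to GFP (the INTACT method). Both groups were injected with scopolamine methyl nitrate at 1 mg/kg, which was followed 30 min later by pilocarpine hydrochloride at 340 mg/kg in Pilo and by saline in Mock. Pilocarpine excites muscarinic receptors and so brings on seizures; these were left to run for 100 min, and mice scoring 3 to 5 on the Racine scale were kept, a selection that Mock mice did not undergo. Directional libraries were made from polyadenylated RNA. Since the labels do not state that samples are separate mice, the tests weigh differences against the variation among these 8 samples, part of which may be technical. In bulk nuclei, fewer cells of a type and less RNA per cell cannot be told apart.

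Long noncoding RNAs of the nucleus are made by RNA polymerase II and, unlike messenger RNAs, stay largely where they are made. Several come from imprinted clusters, where 1 parental copy is silent: Meg3, Rian and Mirg from the maternal copy of the Dlk1-Dio3 region, and Snhg14, Kcnq1ot1 and Peg13 from paternal copies of theirs. Rian and Mirg carry small RNAs in their introns and exons, which are cut out as the long RNA is processed, so that the spliced RNA and the small RNA loci in its introns are separate readouts of 1 transcription unit.

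The 10 RNAs together held 4.70%, 5.60%, 4.77% and 5.20% of exonic counts in Pilo libraries 1 to 4, against 5.06%, 5.31%, 4.82% and 5.42% in Mock libraries 1 to 4. The means were 5.07% ± 0.414 in Pilo and 5.15% ± 0.269 in Mock (SD, n = 4 each), and the groups overlapped. Without replicate number in the fit, Mirg and Peg13 rose in Pilo and no member was called lower. Thus 2 of 10 were higher, where 15.6% of all tested genes were, and 0 of 10 were lower, where 16.2% were (31.8% in either direction). At an unadjusted p under 0.05, edgeR gave 1 member lower, Kcnq1ot1. With replicate number as a block, 3 of 10 were higher (Mirg, Neat1 and Peg13) and 1 lower (Kcnq1ot1), where 23.8% and 23.2% of all tested genes were. Larger differences were seen at loci inside 3 of the genes. Counts over microRNA and snoRNA loci in introns of Mirg, Rian and Snhg11 were lower in Pilo than in Mock, while the exonic counts of these 3 hosts were not. These loci were added after their values were seen, and some of them passed the filter through Mock. The 1 snoRNA locus tested in Rian did not pass. Intronic loci of Snhg14 were not lower, at 19.1 ± 1.72 CPM in Pilo and 18.7 ± 0.672 CPM in Mock.

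Exonic totals were 29356788 to 36161448 counts per library. Summed markers of excitatory neurons reached 2979 to 3554 CPM in Pilo and 2611 to 3283 CPM in Mock, those of astrocytes 1004 to 1487 CPM in Pilo and 839 to 1230.05 CPM in Mock, and those of oligodendrocytes 422 to 753 CPM in Pilo and 331 to 451 CPM in Mock. Endothelial markers summed to 24.2 to 90.0 CPM in Pilo, with the highest value in Pilo library 3, and to 20.6 to 43.7 CPM in Mock. Inhibitory markers summed to 173 to 275 CPM in Pilo and to 138 to 175 CPM in Mock. Of the markers tested, 5 of 10 for excitatory neurons rose and 1 fell, 3 of 10 for inhibitory neurons, 1 of 10 for astrocytes and 2 of 10 for oligodendrocytes rose, and 0 of 9 for microglia and 0 of 10 for endothelial cells passed (0 and 1 at an unadjusted p under 0.05 in edgeR). In a fit with replicate number as a block, 7 markers of excitatory neurons were higher and 2 lower, 9 of inhibitory neurons, 7 of astrocytes and 7 of oligodendrocytes were higher and 0 lower, 4 of endothelial cells were higher and 1 lower, and 0 of microglia passed. Over all tested genes 15.6% rose and 16.2% fell, and with the block 23.8% were higher and 23.2% lower. No marker was at 0 counts in any library. CPM are counts scaled to a common library size, with sizes adjusted by trimmed means (TMM), and a gene was called at an adjusted p under 0.05.

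The mature microRNAs encoded by the loci described below are printed with their seed, bases 2 to 8 from the 5′ end, in capitals, because the seed is what pairs with target messages. They are RefSeq sequences on GRCm38.p6, and 106 mature sequences from 57 hairpins lie between the starts and ends of Meg3 and Mirg on the plus strand of chromosome 12. Those of loci in Mirg introns are shown first.
miR-541-5p: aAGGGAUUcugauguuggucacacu
miR-541-3p: uGGCGAACacagaauccauacu
miR-409-5p: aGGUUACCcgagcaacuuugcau
miR-409-3p: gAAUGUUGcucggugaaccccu
miR-154-5p: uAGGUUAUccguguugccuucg
miR-154-3p: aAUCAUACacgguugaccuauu
miR-496a-5p: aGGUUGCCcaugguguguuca
miR-496a-3p: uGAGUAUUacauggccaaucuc
miR-453: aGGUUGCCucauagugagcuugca
The 5p arm of miR-496a and miR-453 share a seed; no other pair printed here does. Those of loci in Rian introns follow.
miR-341-5p: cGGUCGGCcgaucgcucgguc
miR-341-3p: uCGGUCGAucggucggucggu
miR-1188-5p: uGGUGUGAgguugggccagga
miR-1188-3p: uCCGAGGCuccccaccacacccugc
The last set comes from loci between Meg3 and Rian, where the maternally expressed strand runs opposite to the gene Rtl1.
miR-431-5p: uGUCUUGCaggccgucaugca
miR-431-3p: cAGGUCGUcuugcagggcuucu
miR-433-5p: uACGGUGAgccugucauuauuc
miR-433-3p: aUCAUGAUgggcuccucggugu
miR-127-5p: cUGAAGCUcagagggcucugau
miR-127-3p: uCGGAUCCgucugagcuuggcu
None of these mature microRNAs was measured: a library of polyadenylated RNA holds fragments of the long precursor, so the values below are counts over the hairpin loci.

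Mirg is the last of the long RNAs in the Dlk1-Dio3 cluster and hosts a large group of microRNAs. It lies on the plus strand at chr12:109729764-109749460 (GRCm38), and the annotation places 14 microRNA hairpins within it. Its exonic level was 202, 259.6, 218 and 229.7 CPM in Pilo libraries 1 to 4, against 158, 206, 171 and 179.9 CPM in Mock libraries 1 to 4. Each Pilo library was higher than the Mock library of the same number, and the groups overlapped only because Mock library 2 lay above Pilo library 1. The mean was 227 ± 24.3 CPM in Pilo and 179 ± 20.1 CPM in Mock (SD, n = 4 each). The rise was 0.35 on the log2 scale (SE 0.10, adjusted p = 0.0161), and the call held when each of the 8 libraries was left out in turn (adjusted p at most 0.0451).

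Counts over the small RNA loci that lie wholly in Mirg introns went the other way. These 5 loci, Mir453, Mir154, Mir496a, Mir541 and Mir409, summed to 106, 72, 50 and 56 counts in Pilo libraries 1 to 4, against 166, 198, 267 and 153 counts in Mock libraries 1 to 4. Set against the exonic counts of Mirg in the same library, that was 1.497%, 0.904%, 0.731% and 0.807% in Pilo and 3.48%, 3.08%, 4.14% and 2.85% in Mock. Every Pilo library lay below every Mock library on both scales. The mean percentage was 0.985% ± 0.349 in Pilo and 3.39% ± 0.567 in Mock (SD, n = 4 each).

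Mir541 and Mir453 had 10 or more counts in every library, and the test over all genes called Mir541. Mir541 had 34, 26, 18 and 14 counts in Pilo libraries 1 to 4, against 60, 84, 91 and 58 counts in Mock libraries 1 to 4. Its groups did not overlap, and the log2 fold change was -1.66 (SE 0.25, adjusted p = 0.000296); the call held with each library left out. Mir409 fell by 1.91 (SE 0.41, adjusted p = 0.00319), Mir154 fell by 2.06 (SE 0.45, adjusted p = 0.00355) and Mir496a fell by 1.69 on the log2 scale (SE 0.33, adjusted p = 0.00181). These 3 had fewer than 10 counts in some Pilo libraries and passed the filter through Mock, so their calls are given as a description. Mir453 did not pass (log2 fold change -0.63, SE 0.24, adjusted p = 0.0588). It passed with the block (adjusted p = 0.0355) and in 1 of 8 fits that left out a library. Mir3072, which the annotation places across an exon and an intron of Mirg, had 3.05, 4.63, 3.44 and 4.47 CPM in Pilo against 2.78, 3.36, 2.23 and 3.08 CPM in Mock, a difference of 0.45 on the log2 scale (SE 0.19, adjusted p = 0.0883; 0.0172 with the block). Its value is on the side of the exonic counts of Mirg, not of the intronic loci.

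**Figure D1:**
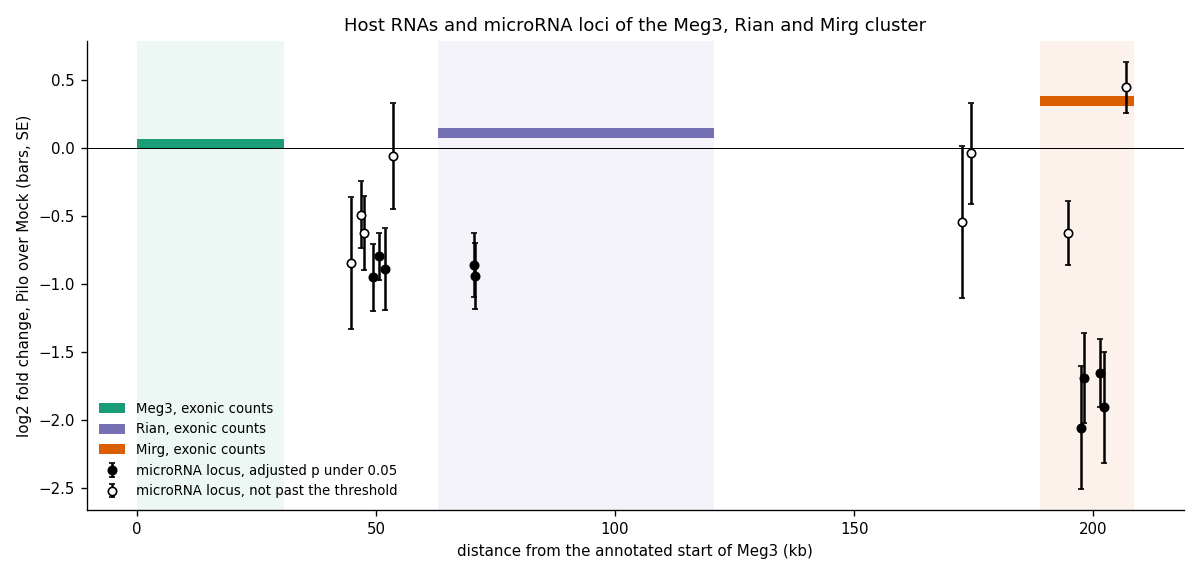
Log2 fold change, Pilo over Mock (vertical axis), against distance in kb from the annotated start of Meg3 (horizontal axis). Thick lines are the exonic changes of Meg3, Rian and Mirg over their annotated spans, circles are the 17 tested microRNA loci with SE, and filled circles passed an adjusted p of 0.05. The filled loci lie between -0.80 and -2.06, below all 3 host lines, which lie at 0.03, 0.11 and 0.35. The lowest of them, Mir154, Mir409 and Mir496a, passed the filter on low counts through Mock. Open circles include Mir434 at -0.06, Mir494 at -0.04 and Mir3072 at 0.45.

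Rian, which hosts box C/D snoRNAs and a few microRNAs, lies upstream of Mirg at chr12:109603940-109661716. It was measured more evenly than any other member. Exonic values were 3374, 3572, 3229 and 3339 CPM in Pilo libraries 1 to 4, against 3074, 3259, 3046 and 3125 CPM in Mock libraries 1 to 4. Of 10172 genes with a mean of at least 10 CPM, 2.99% had a smaller SD within groups. All 4 Pilo libraries were higher than their Mock counterparts, by 0.08 to 0.13 on the log2 scale, but 1 Mock library lay above 1 Pilo library and the difference did not pass (log2 fold change 0.11, SE 0.08, adjusted p = 0.306; 0.0715 with the block). DESeq2 with the block called it higher (adjusted p = 0.0326).

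The loci wholly in Rian introns were lower in Pilo. These 9 loci summed to 237, 176, 215 and 167 counts in Pilo libraries 1 to 4, against 340, 253, 468 and 229 counts in Mock libraries 1 to 4, which is 0.200%, 0.161%, 0.212% and 0.166% of the exonic counts of Rian in Pilo and 0.366%, 0.248%, 0.409% and 0.245% in Mock. The percentages did not overlap, whereas the raw counts did (Pilo library 1 against Mock library 4). Mir1188 had 68, 42, 60 and 41 counts in Pilo and 113, 69, 159 and 73 counts in Mock, a change of -0.94 on the log2 scale (SE 0.24, adjusted p = 0.00898). Mir341, its neighbour, fell by 0.86 on the log2 scale (SE 0.24, adjusted p = 0.0139; 0.0605 in 1 of the 8 fits that left out a library). The snoRNA locus Gm24564 did not pass (log2 fold change -0.42, SE 0.16, adjusted p = 0.0633; 0.0176 with the block).

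Between Meg3 and Rian, Mir433 had 107, 148, 120 and 113 counts in Pilo libraries 1 to 4, against 165, 262, 257 and 182 counts in Mock libraries 1 to 4. The groups did not overlap, and the log2 fold change was -0.80 (SE 0.17, adjusted p = 0.00350). Mir431 fell by 0.95 (SE 0.24, adjusted p = 0.00929) and Mir127 fell by 0.89 on the log2 scale (SE 0.30, adjusted p = 0.0386). The call for Mir127 held in 2 of the 8 fits that left out a library. These 3 hairpins lie within the bounds of Rtl1, a retrotransposon-derived gene read from the other strand. Rtl1 had 2.58 ± 0.903 exonic CPM in Pilo and 2.51 ± 0.570 in Mock (log2 fold change 0.04, SE 0.25, adjusted p = 0.931), and its intronic counts rose by 1.30 on the log2 scale (adjusted p = 0.000953). The strand setting of the counting is not given in the sources used here, but the exonic table keeps opposite strands apart at this place. The 3 hairpins lie wholly in an exon of Rtl1, and Mir433 had a mean of 169 counts over the 8 libraries where Rtl1 had 80.9. At another position with a locus on each strand, Mir409 had a mean of 21.8 counts and Gm24321, opposite to it, had 2.25.

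From Meg3 to Mirg, 59 annotated microRNA loci were in the table, and 42 did not pass the filter on low counts. Among these were loci wholly in host exons, with 0 counts in every library, for which the counts give no level. Of the 17 tested 9 fell and 0 rose (11 and 1 with the block; 1 rose at an unadjusted p under 0.05 in edgeR, Mir3072). Outside the cluster, 110 microRNA loci were tested, of which 13 fell and 5 rose. The filter can pass a locus through the group in which it is higher, so these counts are an account of the tested loci and support nothing. The loci were singled out after their values were seen.

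Meg3, the first RNA of the cluster and known in human as a tumour suppressor, was the gene with the most counts in these nuclei. It lies at chr12:109541001-109571726. The 2 microRNA hairpins annotated within it lie wholly in its exons, had 0 counts in every library and were not tested. How reads over both a hairpin and a host exon were counted is not given, so these 0 counts give no level. Its exonic level was 20194, 26723, 19981 and 22038 CPM in Pilo libraries 1 to 4, against 21491, 23344, 19672 and 22428 CPM in Mock libraries 1 to 4. Libraries numbered 2 were the highest of each group, 2 of 4 Pilo libraries exceeded the Mock library of the same number, and the groups overlapped. The log2 fold change was 0.03 (SE 0.11, adjusted p = 0.857), with a 95% interval from -0.19 to 0.25. By its share of exonic counts, Meg3 held 2.16% ± 0.250 in Pilo and 2.23% ± 0.134 in Mock (SD, n = 4 each).

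The windows from 250 bases before to 50 bases after the RefSeq starts of Meg3 and Mirg are shown because these 2 RNAs of 1 cluster had unlike changes. Capitals mark the cyclic AMP response element TGACGTCA, which binds CREB, a factor switched on by neuronal activity; its half-site TGACG lies inside it. Both strands were searched for these and for the AP-1 motif TGANTCA. TGACGTCA was in 1.79%, TGACG in 20.8% and TGANTCA in 7.81% of 32851 RefSeq windows of this length. RefSeq gives 2 windows for Meg3. The first, chr12:109540746-109541045 on the plus strand of GRCm38.p6, held 1 TGACGTCA and no TGANTCA, and the second, chr12:109545148-109545447, which is not printed, held none of the 3 motifs.
Meg3: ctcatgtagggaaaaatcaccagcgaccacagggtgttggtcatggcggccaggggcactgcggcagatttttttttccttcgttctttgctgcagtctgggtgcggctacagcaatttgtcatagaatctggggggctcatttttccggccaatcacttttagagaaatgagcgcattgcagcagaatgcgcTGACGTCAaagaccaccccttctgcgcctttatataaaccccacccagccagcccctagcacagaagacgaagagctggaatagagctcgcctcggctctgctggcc
The Mirg window, chr12:109734731-109735030 on the plus strand, held none of the 3 motifs and starts inside the annotated span of Mirg.
Mirg: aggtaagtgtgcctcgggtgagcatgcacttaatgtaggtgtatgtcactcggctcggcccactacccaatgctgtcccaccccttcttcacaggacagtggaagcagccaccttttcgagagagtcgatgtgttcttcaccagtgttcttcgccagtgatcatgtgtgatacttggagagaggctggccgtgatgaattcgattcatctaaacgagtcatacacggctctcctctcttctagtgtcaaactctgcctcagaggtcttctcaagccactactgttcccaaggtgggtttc
Windows for Rian, Snhg11, Snhg14, Miat, Kcnq1ot1 and Malat1 were also searched. Kcnq1ot1 held 1 TGACG and Malat1 held 3, and none of the others held any of the motifs. These letters are a description and not evidence of binding.

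Of the 6 tested genes of the Dlk1-Dio3 list, 0 passed in exonic counts with edgeR, where 31.8% of all genes did. Among these neighbours of the cluster 1, Dlk1, had an unadjusted p under 0.05. Dlk1, a paternally expressed membrane protein related to Notch ligands, was nearest at 6.73 ± 1.18 CPM in Pilo and 4.71 ± 1.17 CPM in Mock (log2 fold change 0.52, SE 0.19, adjusted p = 0.0530; 0.00856 with the block), and its intronic counts rose by 1.42 (SE 0.39, adjusted p = 0.00864). Dio3, an enzyme that inactivates thyroid hormone, Dio3os, Begain and Wdr25 had log2 fold changes of -0.05, -0.26, 0.12 and 0.12, none past the threshold.

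Snhg11, a neuronal snoRNA host gene that the annotation lists as protein-coding, was the member with the highest level per kb of exon. It lies at chr2:158375638-158386145. In exons it had 12861, 17865, 14552 and 14658 CPM in Pilo libraries 1 to 4, against 12403, 15846, 12854 and 14161 CPM in Mock libraries 1 to 4. All 4 Pilo libraries exceeded their Mock counterparts, yet the groups overlapped widely. The log2 fold change was 0.12 (SE 0.12, adjusted p = 0.491; 0.0840 with the block). DESeq2 with the block called it higher (adjusted p = 0.0441).

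Intronic counts of Snhg11 were on the other side of 0. Scaled to CPM of intronic counts, the second table gave 156, 176, 192 and 176 CPM in Pilo libraries 1 to 4, against 189.6, 224, 185 and 221 CPM in Mock libraries 1 to 4, numbered as in that table. Mock libraries 2 and 4 lay above every Pilo library, and Mock libraries 1 and 3 lay inside the Pilo range. The log2 fold change was -0.23 (SE 0.10, adjusted p = 0.0797), in a comparison in which 41.4% of 13318 genes passed; with the block the adjusted p was 0.00946, where 29.2% of genes were called lower. The exonic change exceeded the intronic one by 0.32 on the log2 scale (SE 0.10, adjusted p = 0.0347), where 13.5% of 13047 genes were called in this direction (20.5% with the block). Leaving out single libraries ended that call in 6 of 8 fits (adjusted p up to 0.0992), and the block kept it (adjusted p = 0.000279). Introns gave 0.462% ± 0.0192 of Snhg11 counts in Pilo and 0.689% ± 0.122 in Mock (SD, n = 4 each), without overlap. The intronic share of the counts of all genes was lower in Pilo too. It was 29.2% to 30.6% in Pilo libraries and 31.9% to 33.7% in Mock libraries, also without overlap.

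The same direction was seen at Gm25129, a snoRNA locus wholly within a Snhg11 intron (chr2:158379534-158379666), in the exonic table. Gm25129 had 245, 246, 223 and 267 counts in Pilo libraries 1 to 4, against 348, 326, 455 and 458 counts in Mock libraries 1 to 4. All Pilo libraries lay below all Mock libraries, the log2 fold change was -0.68 (SE 0.13, adjusted p = 0.00195), and the call held with each library left out (adjusted p at most 0.00877). Against the exonic counts of Snhg11, the locus gave 0.0521% ± 0.00672 in Pilo and 0.0903% ± 0.0178 in Mock (SD, n = 4 each).

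**Figure D2:**
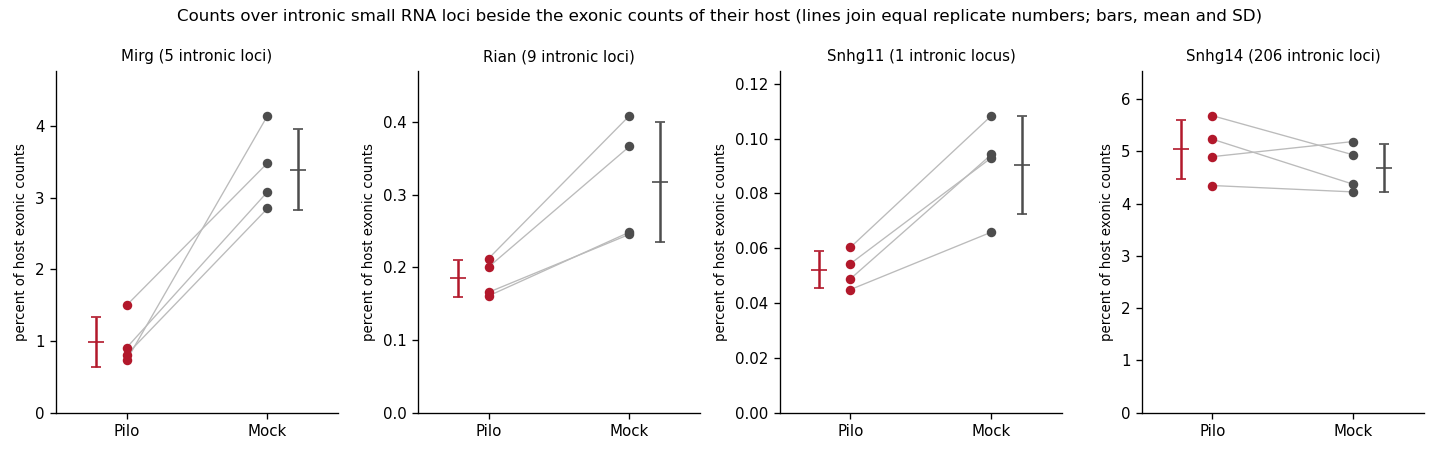
Counts over small RNA loci wholly in introns of Mirg, Rian, Snhg11 and Snhg14 as a percentage of the exonic counts of the host, in each library (Pilo red and left, Mock grey and right; bars are mean and SD, grey lines join equal replicate numbers). All Pilo points lie below all Mock points for Mirg, Rian and Snhg11, and the groups overlap for Snhg14.

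Snhg14 is the long paternal RNA of the Prader-Willi and Angelman region, hosts arrays of C/D snoRNAs and, in neurons, runs through Ube3a on the opposite strand. It lies on the minus strand at chr7:59307924-59975759. Exonic counts gave 404, 374, 379 and 366 CPM in Pilo libraries 1 to 4, against 439, 381, 412 and 378 CPM in Mock libraries 1 to 4. Every Pilo library was lower than its Mock counterpart, by 0.03 to 0.12 on the log2 scale, the groups overlapped, and the difference did not pass (log2 fold change -0.08, SE 0.08, adjusted p = 0.468; 0.202 with the block). Its 206 intronic small RNA loci summed to 19.1 ± 1.72 CPM in Pilo and 18.7 ± 0.672 CPM in Mock (SD, n = 4 each). That sum is mostly 1 locus, Gm24966, with 497, 541, 520 and 427 counts in Pilo libraries 1 to 4, against 430, 489, 525 and 455 counts in Mock libraries 1 to 4 (log2 fold change 0.08, SE 0.10, adjusted p = 0.587). The other 205 loci summed to 102 to 118 counts in Pilo and 98 to 152 counts in Mock, and 147 of the 206 had 0 counts in every library, so the values say little about the snoRNA arrays. Of 4 of them that could be tested, 0 passed in edgeR, also at an unadjusted p under 0.05.

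Ube3a, the ubiquitin ligase that Snhg14 runs against, had 67.5 ± 8.63 exonic CPM in Pilo and 69.8 ± 9.07 CPM in Mock (log2 fold change -0.05, SE 0.11, adjusted p = 0.784). Its intronic counts were 175, 156, 181 and 179.6 CPM in Pilo libraries, against 100.3, 78.7, 102 and 101 CPM in Mock libraries, numbered as in the second table. The groups were far apart, and the intronic log2 fold change was 0.86 (SE 0.10, adjusted p = 1.99e-05), 1.01 more than the exonic one (SE 0.17, adjusted p = 0.00201). Whether reads of an overlapping Snhg14 transcript enter the Ube3a introns was not tested. Of the 6 tested genes of this region 2 rose and 0 fell in exonic counts, where 15.6% and 16.2% of all genes did. Snrpn, a spliceosome protein gene, rose by 0.28 in exonic counts (SE 0.08, adjusted p = 0.0133) and by 0.27 in intronic counts (SE 0.09, adjusted p = 0.0270). Ndn, the MAGE-family gene Necdin, rose by 0.32 in exonic counts (SE 0.10, adjusted p = 0.0259). Magel2, another MAGE gene, had 10.3 ± 2.63 CPM in Pilo and 6.08 ± 2.13 CPM in Mock (log2 fold change 0.77, adjusted p = 0.0566; 0.000124 with the block). Mkrn3 and Atp10a did not pass, and Snurf and Peg12 were too low to test.

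Peg13 is a paternally expressed RNA without introns that lies inside Trappc9 on the same strand, at chr15:72805600-72810324. The libraries gave 100.1, 82.1, 104 and 90.2 CPM in Pilo libraries 1 to 4, against 83.5, 64.3, 85.6 and 76.8 CPM in Mock libraries 1 to 4. Each Pilo library was higher than its Mock counterpart, by 0.23 to 0.35 on the log2 scale, although Pilo library 2 lay below 2 Mock libraries. The rise was 0.28 on the log2 scale (SE 0.10, adjusted p = 0.0496). That call sat at the threshold: it held in 3 of 8 fits that left out a library (adjusted p 0.0251 to 0.142) and was firmer with the block (adjusted p = 0.000216).

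Trappc9, a trafficking-complex gene with maternal bias in mouse brain, rose alongside in exonic counts, by 0.35 (SE 0.08, adjusted p = 0.00546), and in intronic counts, by 0.49 on the log2 scale (SE 0.09, adjusted p = 0.000767). Reads of Trappc9 introns could enter the Peg13 count. Peg13 reads could likewise enter the intronic count of Trappc9, since Peg13 has no entry of its own in the second table. The intronic density of Trappc9 was 9.91 counts per kb in Pilo and 8.33 counts per kb in Mock, over 464 kb. Peg13 had 636 and 531 counts per kb over 4.73 kb. How much of the intronic rise of Trappc9 comes from Peg13 reads was not tested. Ago2, the Argonaute protein that carries microRNAs, rose by 0.29 (SE 0.07, adjusted p = 0.00535). The potassium channel gene Kcnk9, Chrac1 and Ptk2 had exonic log2 fold changes of 0.01, 0.04 and 0.03. Thus 2 of 5 neighbours rose in exonic counts and 0 fell, where 15.6% of all genes rose and 16.2% fell. In intronic counts Kcnk9 fell by 0.67 (SE 0.25, adjusted p = 0.0435) and Chrac1 rose by 0.82 on the log2 scale (SE 0.15, adjusted p = 0.000446).

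Kcnq1ot1 is the paternal RNA that silences genes around Kcnq1 and lies antisense within it, at chr7:143203458-143296549. It measured 120.4, 129, 142 and 124 CPM in Pilo libraries 1 to 4, against 143, 140.2, 159.7 and 144 CPM in Mock libraries 1 to 4. It was the member with the clearest values on the low side: all 4 Pilo libraries were below their Mock counterparts, and of the Pilo libraries number 3 alone reached into the Mock range. It did not pass (log2 fold change -0.19, SE 0.08, adjusted p = 0.0831). With the block it passed (adjusted p = 0.00527), as it did without Pilo library 3 (adjusted p = 0.0465). Kcnq1 itself was near the detection limit, at 0.349 ± 0.0947 exonic CPM in Pilo and 0.333 ± 0.0796 in Mock, and its introns had 0.532 and 0.534 counts per kb in Pilo and Mock, against 44.0 and 51.0 counts per kb over Kcnq1ot1. All Kcnq1 introns together had 154 to 186 counts in Pilo and 133 to 191 counts in Mock, while Kcnq1ot1, on the other strand, had 3743 to 6002 exonic counts over the 8 libraries. Among 8 tested neighbours 1 rose in exonic counts, Tssc4, by 0.43 (SE 0.08, adjusted p = 0.00157), and 0 fell. Over all genes 15.6% rose and 16.2% fell. In intronic counts Tssc4 rose by 0.62 (SE 0.14, adjusted p = 0.00208) and Cd81, a tetraspanin, fell by 0.47 on the log2 scale (SE 0.09, adjusted p = 0.000812). Nap1l4, a histone chaperone, lay at 0.19 on the log2 scale (adjusted p = 0.0548; 0.00960 with the block). Cdkn1c, Cd81, Ascl2, Osbpl5 and Dhcr7 did not pass in exonic counts, and Phlda2, Slc22a18 and Tspan32 were too low to test.

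Malat1, an RNA of nuclear speckles, where splicing factors gather, varied more between libraries than between groups. It lies at chr19:5795690-5802672. Its level was 8726, 6486, 5513 and 9319 CPM in Pilo libraries 1 to 4, against 9235, 5529, 6787 and 9748 CPM in Mock libraries 1 to 4. Libraries 1 and 4 were high and libraries 2 and 3 low in both groups. Pilo and Mock differed by -0.06 on the log2 scale (SE 0.21, adjusted p = 0.863), with a 95% interval from -0.47 to 0.35, and 98.3% of 10172 genes had a smaller SD within groups. Its sign turned when Pilo library 2, Pilo library 3, Mock library 1 or Mock library 4 was left out. In this polyadenylated RNA only the part of Malat1 that the library preparation captured is counted, since its mature end is not a poly(A) tail.

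Of 18 nuclear speckle protein genes tested, 5 fell and 1 rose, where 16.2% of all genes fell and 15.6% rose; with the block 9 were lower and 2 higher, where 23.2% and 23.8% were. The kinase Clk1, which phosphorylates SR proteins, fell by 0.92 (SE 0.09, adjusted p = 9.07e-06), and the SR proteins Srsf6 and Srsf5 fell by 0.77 (SE 0.08, adjusted p = 1.93e-05) and 0.69 (SE 0.08, adjusted p = 3.00e-05). Thrap3 rose by 0.38 on the log2 scale (SE 0.07, adjusted p = 0.00150).

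Neat1, the scaffold RNA of paraspeckles, lies next to Malat1 at chr19:5824708-5845478 and was the least even member. Its level was 48.3, 51.0, 78.4 and 116.8 CPM in Pilo libraries 1 to 4, against 35.3, 46.7, 54.0 and 93.0 CPM in Mock libraries 1 to 4. Library 4 was the highest of both groups and library 1 the lowest, and each Pilo library was above its Mock counterpart, by 0.13 to 0.54 on the log2 scale. The log2 fold change was 0.36 (SE 0.41, adjusted p = 0.557), and 99.4% of 10172 genes had a smaller SD within groups. With the block it was called higher (adjusted p = 0.000167).

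Astrocyte markers, too, were highest in libraries 3 and 4 of both groups. Their sum was 1263, 1004, 1487 and 1483 CPM in Pilo libraries 1 to 4, against 946, 839, 1230.05 and 1201 CPM in Mock libraries 1 to 4, and it was higher in Pilo than in Mock at every number. With the block 7 of 10 astrocyte markers and 7 of 10 oligodendrocyte markers were higher, where 23.8% of all tested genes were. This was not particular to glia: 9 of 10 inhibitory and 7 of 10 excitatory markers were also higher, and 2 excitatory markers were lower. The part of astrocytes and oligodendrocytes in the Neat1 values was not tested. Of 20 paraspeckle protein genes 5 fell and 2 rose, against the same 16.2% and 15.6% of all genes; with the block 8 were lower and 7 higher. Fam98a fell by 0.64 (SE 0.07, adjusted p = 3.34e-05) and Rbm14 fell by 0.44 on the log2 scale (SE 0.13, adjusted p = 0.0167). Rbm12 rose by 1.04 (SE 0.13, adjusted p = 6.82e-05) and Pspc1, a core paraspeckle protein, rose by 0.33 (SE 0.07, adjusted p = 0.00385).

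Miat, a neuronal nuclear RNA that binds splicing factors, lies at chr5:112213228-112229395. Its level was 2509, 3849.8, 2967 and 2901 CPM in Pilo libraries 1 to 4, against 2608, 3267, 2679.7 and 2955 CPM in Mock libraries 1 to 4. Library 2 was the highest of both groups, 2 of 4 Pilo libraries exceeded their Mock counterparts, and the difference did not pass (log2 fold change 0.09, SE 0.12, adjusted p = 0.643; 0.297 with the block). Other annotated genes share 30.4% of its exonic bases, among them Gm26953 on the opposite strand. Of 4 splicing factors reported to bind Miat, Qk rose by 0.34 (SE 0.11, adjusted p = 0.0335) and 0 fell. Among all genes 15.6% rose and 16.2% fell.

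**Figure D3:**
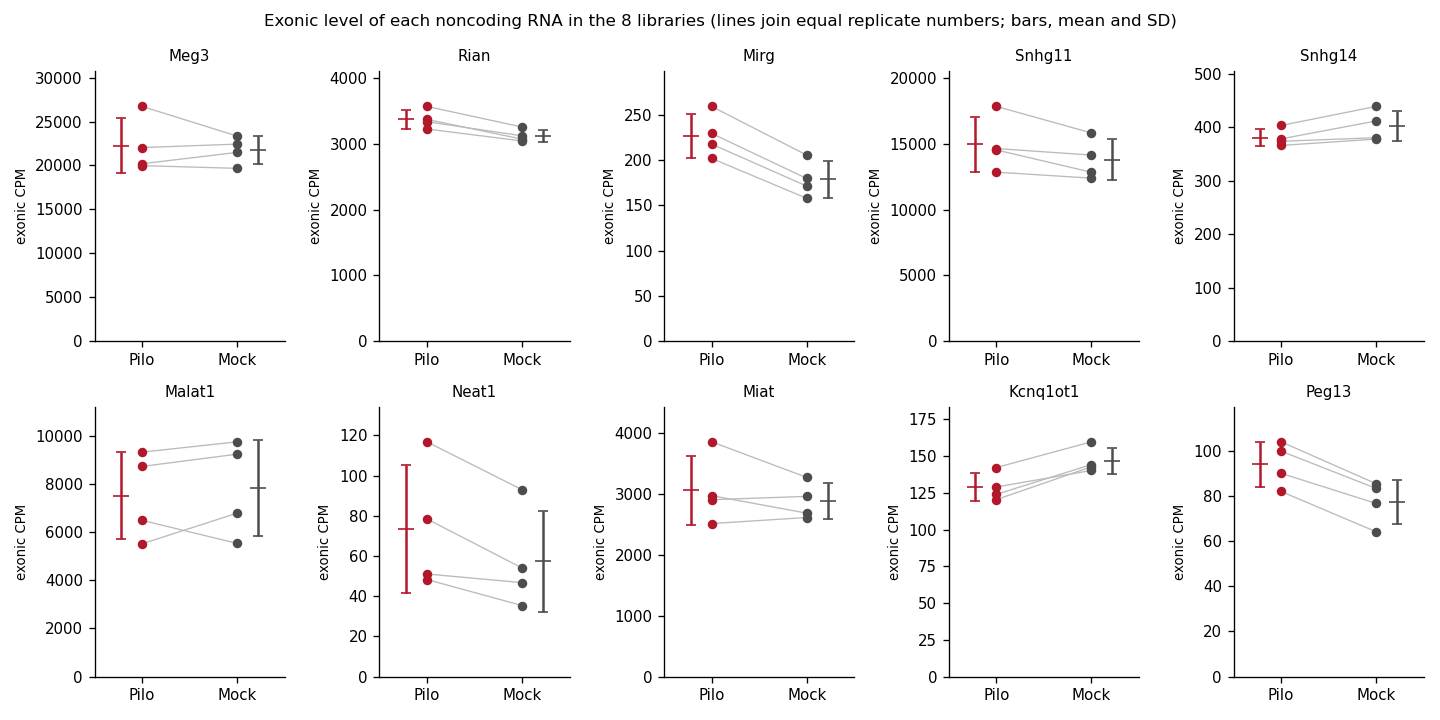
Exonic CPM of the 10 noncoding RNAs in each library (Pilo red and left, Mock grey and right; vertical axes start at 0; bars are mean and SD, grey lines join equal replicate numbers). The lines of Mirg, Peg13, Rian, Snhg11 and Neat1 all slope down from Pilo to Mock, and those of Kcnq1ot1 and Snhg14 all slope up. The groups overlap in every panel.

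Libraries of the same number deviated together from their group means, and the number was used as a block in a second fit. There, 3 of 10 members were higher (Mirg, Neat1 and Peg13) and 1 lower (Kcnq1ot1), where 23.8% of all genes were called higher and 23.2% lower. The Mirg difference within replicate numbers was the most even, at 0.36, 0.34, 0.35 and 0.35 on the log2 scale.

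**Figure D4:**
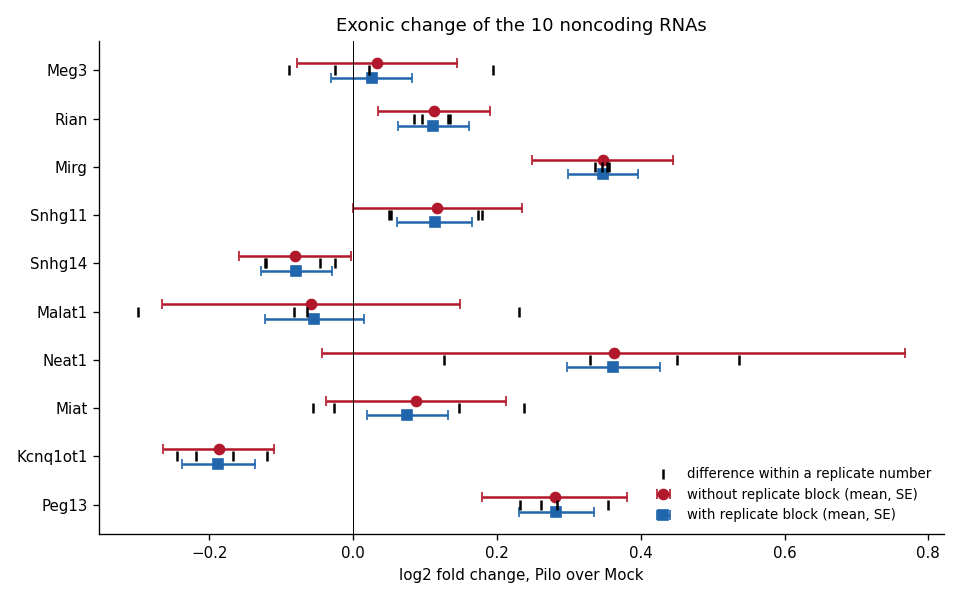
Log2 fold change, Pilo over Mock, of exonic counts (horizontal axis) for each noncoding RNA, without (red circles) and with (blue squares) replicate number as a block, with SE; black ticks are the 4 differences within a replicate number. The block narrows the error bars most for Neat1 and Malat1, whose SE were 0.41 and 0.21 without it and 0.06 and 0.07 with it.

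Levels can be compared between genes only per kb of exon. In CPM per kb, Snhg11 had 1758 ± 245 in Pilo and 1621 ± 181 in Mock, Meg3 1229 ± 173 in Pilo and 1201 ± 86.7 in Mock, and Malat1 1076 ± 259 in Pilo and 1121 ± 287 in Mock (SD, n = 4 each). They ranked 1, 2 and 3 of 19142 genes by mean over all libraries, although the ranges of Meg3 and Malat1 overlapped in both groups. Miat followed with 329 CPM per kb in Pilo and 309.6 in Mock, then Rian with 185 in Pilo and 171 in Mock, Mirg with 31.2 in Pilo and 24.5 in Mock, and Peg13 with 19.9 in Pilo and 16.4 in Mock. Snhg14 had 14.6 CPM per kb in Pilo and 15.4 in Mock, Neat1 3.54 in Pilo and 2.76 in Mock, and Kcnq1ot1 1.38 in Pilo and 1.58 in Mock. By mean over all libraries Neat1 ranked 10239 and Kcnq1ot1 12654 of 19142 genes, so these members were not abundant here per kb of annotated exon. That exon is 20.8 kb long in Neat1 and 93.1 kb in Kcnq1ot1, and how much of it the polyadenylated RNA captured was not tested. By CPM, without length, Neat1 ranked 3947 and Kcnq1ot1 1757 of 19176 genes. The order was the same in both groups. In Mock, the ranges of Peg13 and Snhg14 and those of Neat1 and Kcnq1ot1 overlapped.

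**Figure D5:**
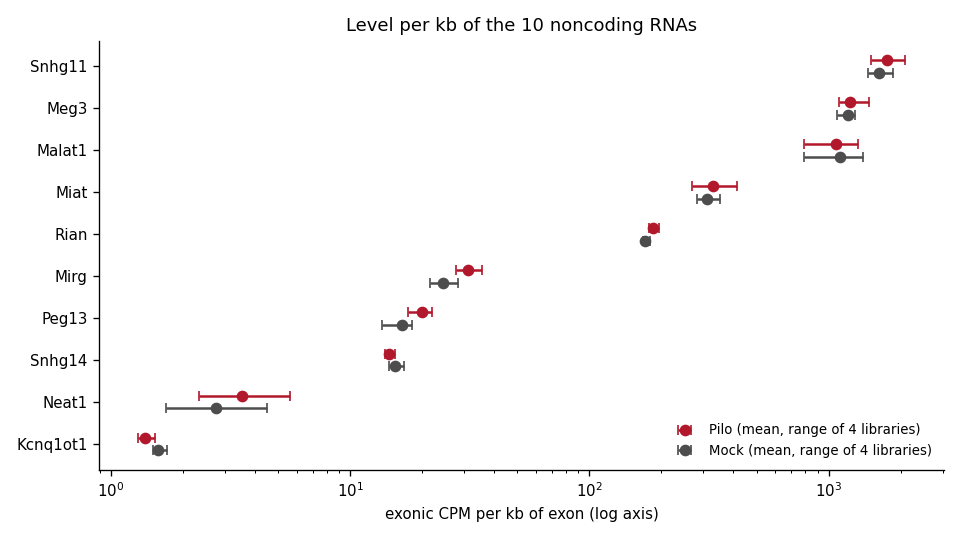
Exonic CPM per kb of exon (log axis) for the 10 noncoding RNAs, mean and range over 4 libraries, Pilo in red above Mock in grey. Snhg11, Meg3 and Malat1 lie highest and Kcnq1ot1 lies lowest, at 1.38 in Pilo and 1.58 in Mock.

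For each member the 2 genes with the most similar pattern were sought among 9714 genes of at least 10 CPM, by the root mean square difference of log2 CPM over the 8 libraries, each gene centred on its Mock mean. For Mirg they were Erh (0.02) and Bdh1 (0.04), and for Peg13 Atxn10 (0.03) and Cdh2 (0.05), against a median over all genes of 0.30 for both. Malat1 had Lars2 (0.17) and Son (0.19), a core protein of nuclear speckles, and Neat1 had Bcan (0.16) and Gjb6 (0.20), an astrocyte connexin in the marker list above. Meg3 was nearest to Lmnb2 and Zfp664, Rian to Zfyve27 and Osbp, Snhg11 to Begain and Fxr2, Snhg14 to Gskip and Ppip5k2, Miat to Fxr2 and Ano8, and Kcnq1ot1 to Aifm1 and Anapc11. Among the members themselves Snhg11 and Miat were closest (0.05), followed by Meg3 and Miat (0.10).

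Other noncoding RNAs were called in both directions, where 15.6% of all tested genes rose and 16.2% fell. Of 16 snoRNA host genes tested, 2 rose and 4 fell, with Snhg1 higher by 0.59 (SE 0.11, adjusted p = 0.00113) and Snhg15 by 0.51 (SE 0.12, adjusted p = 0.00485), while Snhg5 fell by 0.71 (SE 0.13, adjusted p = 0.00121), Snhg3 fell by 0.49 (SE 0.11, adjusted p = 0.00484) and Snhg17 fell by 0.38 (SE 0.09, adjusted p = 0.00617). The list median was -0.11, against 0.00497 over all genes. Of 24 other named long noncoding RNAs, 4 rose and 5 fell, with a list median of -0.06. Mir9-3hg, the host of a miR-9 copy, rose by 0.75 (SE 0.12, adjusted p = 0.000408), Chaserr, which lies beside Chd2, rose by 0.62 (SE 0.11, adjusted p = 0.000843), and Norad, which binds Pumilio proteins, rose by 0.41 (SE 0.10, adjusted p = 0.00559). Dleu2 fell by 0.74 (SE 0.08, adjusted p = 3.31e-05), A330008L17Rik fell by 0.92 (SE 0.13, adjusted p = 0.000206) and C130071C03Rik fell by 0.47 (SE 0.08, adjusted p = 0.000463).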

How the data were processed

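Nuclear RNA of forebrain excitatory neurons was measured in 4 Pilo and 4 Mock samples, grouped by their titles. The authors deposited unnormalized read counts: an exonic table of 55471 Ensembl genes, 55144 with a matched symbol, and a second table with exons and introns apart for 18513 Entrez genes, 18507 with a matched symbol. The submitters' processing notes list edgeR, HTSeq 0.11.2, STAR 2.7.1a, Trimmomatic 0.39, R 4.1.1 and the build mm10. Not given in the sources used here are the annotation, the strand setting and how introns were counted. Totals were 29356788 to 36161448 counts per library in the exonic table, and 27135364 to 33715773 exonic and 11928054 to 16703475 intronic counts in the second.

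The test was edgeR 4.0.16 under R 4.3.3 (robust quasi-likelihood F-test, two-sided, TMM, filterByExpr with a minimum count of 10, Benjamini-Hochberg adjustment over all genes at 0.05). The SE is the fitted coefficient divided by the square root of F, and 95% intervals are the fold change ± 1.96 SE. Exonic and intronic changes were compared as an interaction with each sample as a term. The procedure was tested on simulated counts. Alternatives used DESeq2 1.42.0, limma 3.58.1, other filters and scalings, a replicate block, and leaving out each library. No 2 libraries of a group agreed within sampling noise: chi-square divided by its degrees of freedom was 10.3 to 34.9.

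Same-numbered Pilo and Mock libraries deviated together over 19176 genes (Pearson's r 0.425 to 0.477, above 0.1 for every pair), so the numbers pair the samples; the link comes from the data, since the labels do not say what a number marks. The tables give columns 2 and 3 in opposite order for Pilo and for Mock (r of deviations with the matching column 0.993 to 0.997), and each number is given as in its own table.

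The members and lists were chosen with earlier results of these data known. Named genes are all members, all imprinted neighbours, up to 3 genes per direction with the smallest p of every other list, and the 2 genes most like each member; the microRNA and snoRNA loci were added after their values were seen. A gene that this rule names is not reported here. Positions are from GENCODE vM21 on GRCm38. Loci are called intronic when no base lies in an annotated exon of the host. RefSeq windows were found for 8 members, with none used here for Neat1 and Peg13. Counts over genes that overlap on 1 strand are uncertain.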

Additional observations from a re-analysis of the deposited data

How the results depend on the processing

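Mirg was called in all 16 alternative fits (adjusted p at most 0.0451) and Peg13 in 9 of 16. With limma-voom 1 member was higher, and 1 with a filter of 1 CPM in 4 samples. DESeq2 with a replicate block, an alternative added after the data were seen, gave 5 members higher and 1 lower. Among the 5 were Rian (adjusted p = 0.0326) and Snhg11 (adjusted p = 0.0441), which edgeR with the block did not call. The share of all genes called in these fits is not given here, so the counts of members cannot be set against it. With edgeR and the replicate block, 1 member was lower, and 4572 of all genes were higher in exonic counts and 2680 in the difference between exons and introns. In exonic counts 26 listed genes were higher and 29 lower, where 23.8% and 23.2% of all tested genes were. The block also made the intronic counts of 1 member, Snhg11, lower, and 1 microRNA locus from Meg3 to Mirg, Mir3072, higher. Leaving out each library gave 1 to 2 members higher, 0 to 1 lower, 0 to 1 higher in exons against introns, and 0 to 1 microRNA loci higher. Exonic columns of the second table and the sum of exons and introns gave 0 members higher, because Snhg11 is the 1 member read there. With exonic and intronic counts as the total, Snhg11 held 1.09% of counts in Pilo and 1.02% in Mock. Leaving out single libraries turned the sign of 3 members that passed in no fit: log2 fold changes ran from -0.065 to 0.095 for Meg3 and from -0.041 to 0.17 for Miat, turning without Pilo replicate 2, and from -0.19 to 0.080 for Malat1, turning without Pilo replicate 2 or 3 or Mock replicate 1 or 4. The cause was not tested. Depth limits the microRNA loci: Mir154 had 2 to 7 counts per Pilo library. In edgeR, the replicate block changed no other call of a member than those printed beside the results.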
